A study of Mus musculus with 68 samples.

Results

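The 10 genes described here are Dazl, Ddx4, Mael, Tdrkh, Sycp3, Sycp1, Hormad1, Stk31, Taf7l and Slc25a31, germ cell genes that are known as targets of repression by complexes of the transcription factor MAX. They were chosen by name, and each was found in every table of the series, as 10 of 24421 reference genes. Their RNA was measured by Smart-seq2, which copies polyadenylated RNA from a few cells, in cumulus cells (CCs), in SCNT embryos made from CCs and in the blastocysts of fertilized embryos. CCs were the nuclear donors and were injected into enucleated MII oocytes of BDF1 mice (B6D2F1 in the methods), and the embryos were activated in strontium with cytochalasin B. There were 3 CC libraries, 5 SCNT libraries at the 4-cell stage (4C) and 6 at each of 6 hpa, 14 hpa, early 2-cell (E2C), late 2-cell (L2C), 8-cell (8C) and morula and of SCNT blastocysts split into inner cell mass (ICM) and trophectoderm (TE), where hpa means hours post activation. The fertilized embryos came from C57BL/6j zygotes, and there were 2 libraries for each of ICM and TE after a control, a morpholino against Max (Max MO) or a morpholino against Mcrs1 (Mcrs1 MO). The labels call the control libraries untreated, whereas the protocol describes a random control morpholino, and the embryos that were sequenced had received 0.3 mM Max MO, 0.2 mM Mcrs1 MO or 1 mM control morpholino, so that target and dose cannot be told apart. Each reaction took 10 blastomeres, ICM and TE were parted by hand, the females were 8 to 10 weeks old, and nothing in the labels says that libraries with one replicate number shared embryos. The paper describes the morpholino libraries as biological replicates, and its captions for SCNT expression give 6 biologically independent samples, although 4C had 5 libraries here. Those captions do not name CCs, for which p-values measure the spread between libraries, which may be technical.

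MAX is a small DNA-binding protein that pairs with MYC, MXD or MGA proteins and then binds the E-box, the sequence CACGTG. With MGA it is part of PRC1.6, a Polycomb complex that also holds E2F6, PCGF6 and L3MBTL2 and that is known for keeping germ cell genes silent in embryonic stem cells and somatic cells. MCRS1 is a subunit of chromatin-remodelling and histone-acetylating complexes. Oocytes store RNA of germ cell genes, and this RNA is largely degraded before and around the start of embryonic transcription.

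The promoters of the 10 genes were read for the letters of these binding sites, since MAX and E2F6 are known to recognise them. RefSeq promoters of 300 bases (250 before and 50 after the transcription start, GRCm38.p6) were present for 10 of 10 genes. The E-box CACGTG, which reads alike on both strands, was found in 8 of the 10 promoters, in all but those of Dazl and Tdrkh, against 7.15% of all 32851 promoters. The E2F6-type site TTCCCGC, searched on both strands, was found in 4 of the 10 (Ddx4, Sycp3, Hormad1 and Slc25a31), against 4.60% of all promoters. The T-box half-site TCACACC was found in 1 of the 10, that of Sycp3, against 3.98% of all promoters. CpG dinucleotides numbered 15 to 38 in the 10 promoters, with a median of 24, against a median of 7 over all promoters. The E-box and the E2F6-type site each hold a CpG, and the shares over all promoters were not matched for CpG number. The match in a promoter says only that the letters are there, and binding was not measured. The 150 bases before the start are shown for the 4 genes with both an E-box and an E2F6-type site, for Stk31, whose 5' end is described below, and for Dazl, which has neither and had the largest differences after both morpholinos in the ICM. The letters in capitals are E-boxes and E2F6-type sites on either strand.

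Hormad1, chr3:95559527-95559676, plus strand: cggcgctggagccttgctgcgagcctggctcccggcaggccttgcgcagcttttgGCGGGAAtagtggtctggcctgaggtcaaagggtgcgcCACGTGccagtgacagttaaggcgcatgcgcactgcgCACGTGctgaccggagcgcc
Sycp3, chr10:88459437-88459586, plus strand: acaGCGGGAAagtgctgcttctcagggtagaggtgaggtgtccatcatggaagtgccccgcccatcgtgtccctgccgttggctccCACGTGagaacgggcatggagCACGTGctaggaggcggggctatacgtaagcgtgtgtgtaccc
Ddx4, chr13:112652311-112652460, minus strand: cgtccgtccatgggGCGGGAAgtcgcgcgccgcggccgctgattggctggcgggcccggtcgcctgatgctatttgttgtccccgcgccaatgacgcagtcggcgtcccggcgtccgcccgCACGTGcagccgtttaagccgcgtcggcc
Slc25a31, chr3:40708721-40708870, plus strand: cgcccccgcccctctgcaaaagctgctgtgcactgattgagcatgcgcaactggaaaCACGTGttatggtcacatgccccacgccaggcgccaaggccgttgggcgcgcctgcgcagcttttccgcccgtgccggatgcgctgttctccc
Stk31, chr6:49395454-49395603, plus strand: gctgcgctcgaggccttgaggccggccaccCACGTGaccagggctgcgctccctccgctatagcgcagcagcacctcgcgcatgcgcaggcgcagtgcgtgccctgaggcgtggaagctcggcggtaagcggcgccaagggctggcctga
Dazl, chr17:50293621-50293770, minus strand: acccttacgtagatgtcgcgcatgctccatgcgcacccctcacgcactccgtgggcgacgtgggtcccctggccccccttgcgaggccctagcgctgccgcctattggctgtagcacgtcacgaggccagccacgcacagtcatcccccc

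Hormad1 had E-boxes at positions -57 and -20 from the transcription start and an E2F6-type site at -95. Sycp3 had E-boxes at -64 and -43 and an E2F6-type site at -147. In Ddx4 the E-box lay at -29 and the E2F6-type site at -136, and in Slc25a31 the E-box lay at -93 and the E2F6-type site at 20, after the start and outside the bases shown. The single E-boxes of Taf7l, Sycp1, Stk31 and Mael lay at -49, -94, -120 and -223.

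**Figure D1:**
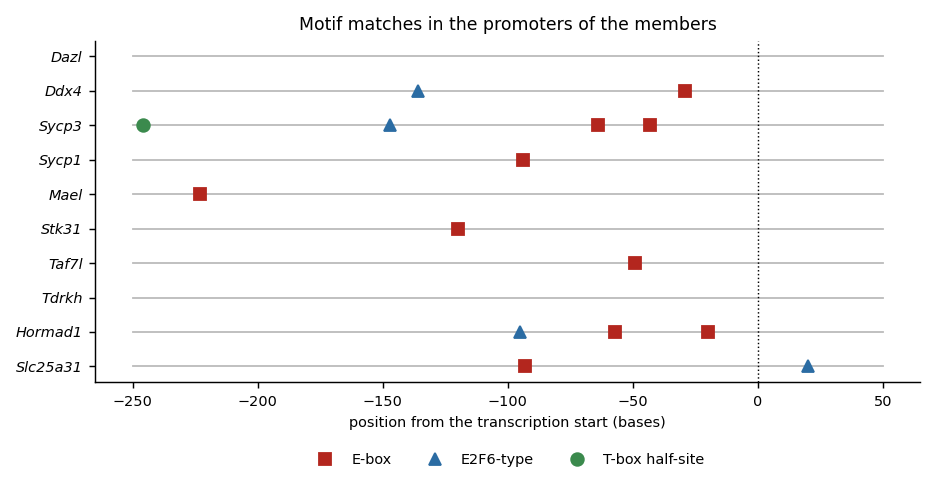
Positions of motif matches (horizontal axis, bases from the transcription start, marked by the dotted line) in the 300-base RefSeq promoters of the 10 genes (rows). Squares are E-boxes, triangles E2F6-type sites and the circle the T-box half-site. E-boxes stand in 8 of 10 rows, and the rows of Dazl and Tdrkh are empty.

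Levels are given as TPM (a share of all transcripts, scaled for gene length) of the annotated gene, as deposited. The tables hold no counts, so no counting error can be given. Depth, estimated from coverage and FPKM, was 1.00 to 5.17 gigabases a library. A low value of one gene in one library can be a missed gene or a truly low level, which cannot be told apart here. Ldha, a widely used gene of glycolysis, was below 1 TPM in 13 of 68 libraries and at 0 in none. Rpl3, Tbp and Pgk1 were below 1 TPM in 1 library each, Tuba1b in 2 and Actb in 0. SCNT ICM replicates 1 to 3 had 6177 to 6771 genes at 1 TPM or more, against 9011 to 10032 in replicates 4 to 6. In bulk libraries fewer cells of a type and less RNA per cell cannot be told apart. Comparisons used limma on log2(TPM + 1) over all reference genes above 0, with Benjamini-Hochberg adjustment, and a gene is said to have risen or fallen where the adjusted p was under 0.05 and the change at least 2-fold. Fold changes on this scale understate those of genes with low levels.

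The first question was which of the genes the oocyte supplies. At 6 hpa the embryo holds the cytoplasm of the oocyte and the nucleus of a CC, and no oocyte library was analysed here, so the 6 hpa level against CCs stands for the supply. In CCs all 10 genes were near 0, with Sycp3 the highest at 0.574 to 1.95 TPM. At 6 hpa 8 of the 10 were higher than in CCs, where 34.2% of all 23985 genes tested differed and 13.8% were higher. These 8 were Dazl, Sycp3, Slc25a31, Stk31, Ddx4, Sycp1, Tdrkh and Mael, and 9 of the 10, with Hormad1 added, did not overlap between the groups, where 18.4% of all genes were higher without overlap. Of the marker list for oocytes, 10 of 10 genes were higher at 6 hpa, with a summed level of 7923 to 17163 TPM against 0.957 to 5.10 TPM in CCs.

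Dazl, an RNA-binding protein that activates translation of stored germ cell RNAs, was the most abundant of the 10 at 6 hpa, with 286 TPM in the lowest library, a median of 328 TPM and 398 TPM in the highest. It was listed at 0 in the 3 CC libraries (adjusted p = 7.4e-28, limma). Dazl made up 44.2% to 58.4% of the summed TPM of the 10 genes in the 6 hpa libraries. Sycp3, which forms the lateral elements of the synaptonemal complex that aligns meiotic chromosomes, was next, at 70.8 to 148 TPM with a median of 97.5 TPM, a log2 fold change over CCs of 5.46 ± 0.60 (SE). Slc25a31, the germ cell carrier that exchanges ADP and ATP across the inner mitochondrial membrane, was at 34.6 to 68.4 TPM, and Stk31, a germ cell kinase with a Tudor domain, was at 26.3 to 110 TPM. Ddx4, the RNA helicase of germ granules, was at 25.1 to 44.1 TPM. Sycp1, the transverse filament of the synaptonemal complex, was at 13.4 to 29.8 TPM, and the piRNA pathway genes Tdrkh and Mael were at 9.85 to 16.7 TPM and 9.51 to 16.8 TPM. Hormad1, a protein of the meiotic chromosome axis, was at 0.631 to 11.1 TPM and did not pass the test (adjusted p = 0.083, limma). Taf7l, an X-linked relative of a general transcription factor subunit, was between 0 and 0.202 TPM.

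**Figure D2:**
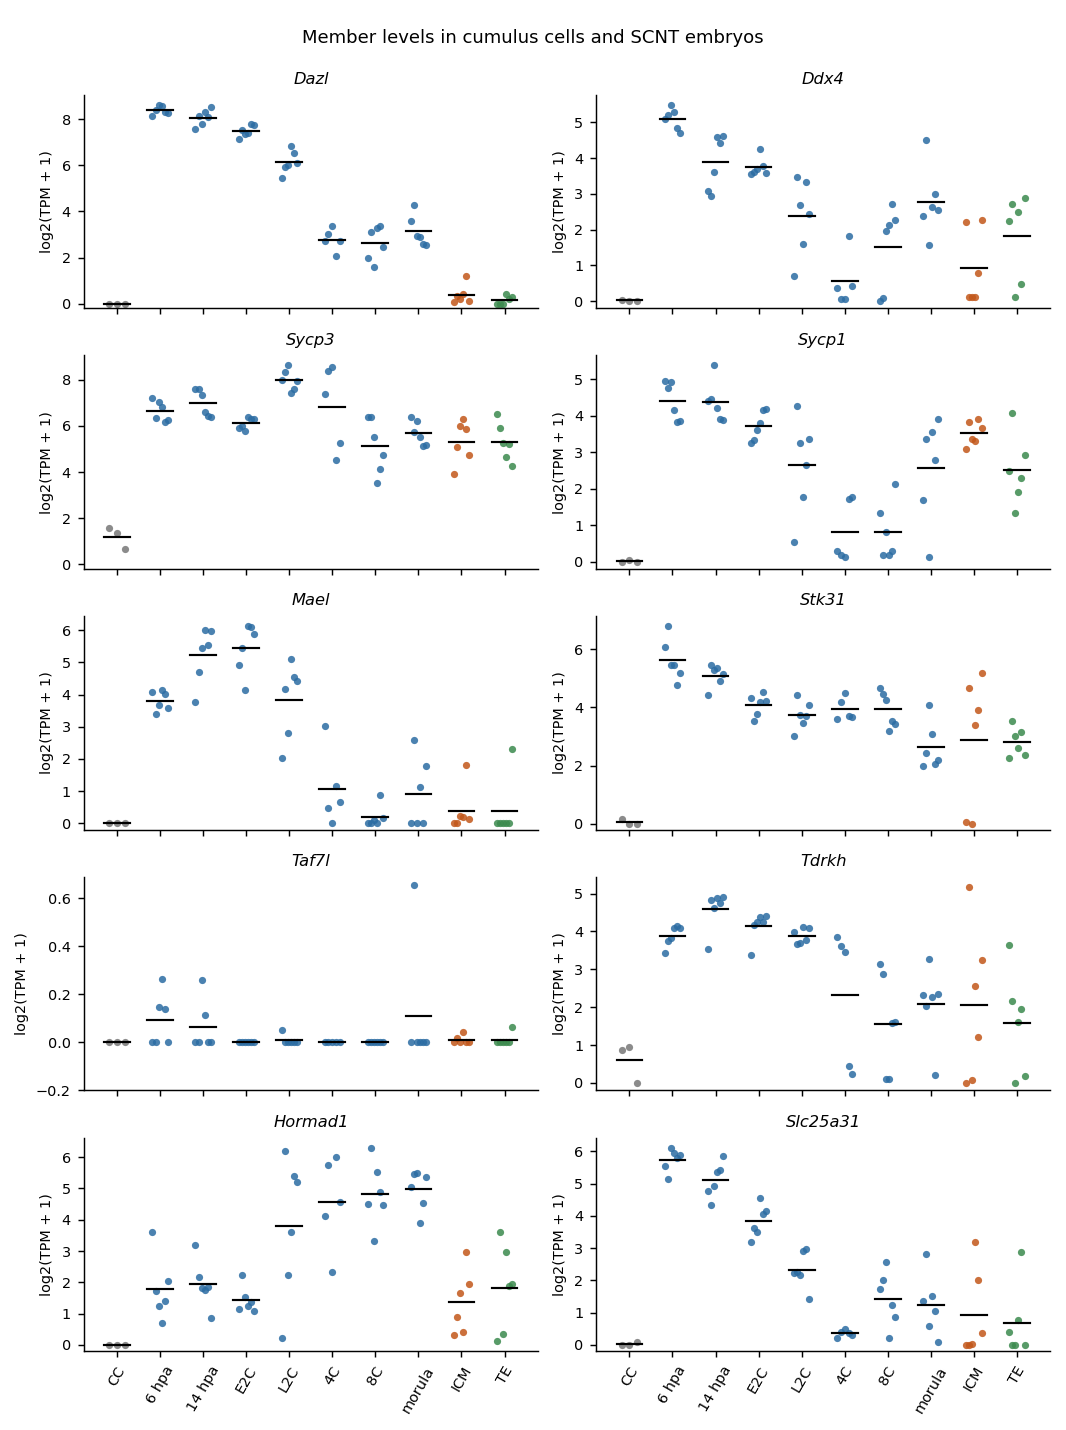
Level of each of the 10 genes (one panel each, vertical axis log2(TPM + 1)) in CCs and at each SCNT stage (horizontal axis). Points are libraries and black lines are means, with 3 libraries for CC, 5 for 4C and 6 for each other group, and the vertical axes differ between panels. Dazl drops from 286 to 398 TPM at 6 hpa to at most 1.33 TPM in the ICM, while Hormad1 is highest from L2C to morula.

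In the main fit, which did not pair libraries, the steps from 6 hpa to E2C gave no call. None of the 10 genes passed the test between 6 hpa and 14 hpa, where 5.46% of all genes did, and 2 (Ddx4 and Mael) had an unadjusted p under 0.05 (limma). Ddx4 was at 6.70 to 23.6 TPM at 14 hpa, below each of the 6 hpa libraries, as for 3.39% of all genes, with a log2 fold change of -1.22 ± 0.50 (SE, adjusted p = 0.14, limma). Mael, an HMG-box protein of the piRNA pathway, went the other way, with a median of 13.4 TPM at 6 hpa and 44.5 TPM at 14 hpa (12.5 to 62.9 TPM). Its log2 fold change of 1.43 ± 0.49 (SE) had an adjusted p of 0.058 (limma), and the groups overlapped. With the replicate number as a block in the fit, since same-numbered libraries of these stages deviated together, Mael passed and the count was 1 of 10. Mael kept that level at E2C, at 16.6 to 69.2 TPM with a median of 50.8 TPM. None of the 10 passed between 14 hpa and E2C, where 2.72% of all genes did, and Dazl and Slc25a31 had an unadjusted p under 0.05 (limma).

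At L2C the genes parted. From E2C to L2C 4 of the 10 fell (Dazl, Ddx4, Mael and Slc25a31), where 5.51% of all genes did, and 2 rose (Sycp3 and Hormad1), where 12.1% of all genes did. Dazl stood at 143 to 219 TPM at E2C and at 42.2 to 112 TPM at L2C, and the groups did not overlap. The log2 fold change of Dazl was -1.37 ± 0.26 (SE, adjusted p = 5.7e-05, limma). Sycp3 moved the opposite way, from 53.7 to 83.1 TPM at E2C to 173 to 403 TPM at L2C, again without overlap, which gave a log2 fold change of 1.88 ± 0.49 (SE, adjusted p = 0.0027, limma). L2C was the stage with the highest Sycp3 mean, 266 TPM. Hormad1 rose from 1.13 to 3.73 TPM to a median of 23.6 TPM, but its L2C libraries ran from 0.160 to 72.7 TPM and overlapped with those at E2C. The log2 fold change of Hormad1 was 2.37 ± 0.68 (SE, adjusted p = 0.0068, limma), and it was 1.24 with an adjusted p of 0.501 in SCNT replicates 1 to 3 alone. The fall of Ddx4 had an adjusted p of 0.23 in replicates 1 to 3 alone and of 0.060 in replicates 4 to 6 alone, and that of Mael 0.067 and 0.062. After rescaling to the summed TPM of reference genes, the fall of Ddx4 was not called (adjusted p = 0.074, limma). That sum was 304224 in L2C replicate 1, against 513691 to 617792 in the other L2C libraries and 594568 to 691333 at E2C. The part of L2C replicate 1 in the spread at L2C was not tested.

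From L2C to 4C 5 of the 10 fell (Dazl, Ddx4, Sycp1, Mael and Slc25a31) and none rose, where 13.9% of all genes fell and 5.57% rose. The 5 Dazl values at 4C were 5.62, 7.14, 9.37, 3.16 and 5.61 TPM, all below each L2C library. The log2 fold change of -3.36 ± 0.27 (SE, adjusted p = 3.3e-14, limma) was the largest of the 10 at this step. Slc25a31 was at 0.156 to 0.416 TPM at 4C, also below each L2C library, while the 4C values of Ddx4, Sycp1 and Mael overlapped with those at L2C. The wider list of 58 germ cell genes went with them, with 20 lower and 1 higher at 4C, and of the oocyte markers 9 of 10 were lower. The fall of Ddx4 had an adjusted p of 0.054 in replicates 1 to 3 alone and of 0.114 in replicates 4 to 6 alone (limma). That of Mael had 0.064 in replicates 1 to 3 alone, and that of Sycp1 0.198 in replicates 4 to 6 alone. Under quantile normalization the falls of Ddx4 and Sycp1 were not called (adjusted p = 0.113 and 0.137, limma). Sycp3 split by replicate number at 4C, with 167, 335 and 375 TPM in replicates 1 to 3 and 22.4 and 37.5 TPM in replicates 4 and 5, and Tdrkh did likewise, with 13.4, 11.3 and 10.0 TPM against 0.358 and 0.180 TPM. The TPM summed over all reference genes split as well, at 440165, 523386 and 530756 in 4C replicates 1 to 3 against 756466 and 735022 in replicates 4 and 5. The part of this library-wide difference in the split was not tested. The fall of Sycp3 from 4C to 8C (log2 fold change -1.71 ± 0.51, SE, adjusted p = 0.021, limma), the only call of that step, where 3.87% of all genes fell, had an adjusted p of 0.279 in replicates 4 to 6 alone, and the call was also lost without 4C replicate 1, 2 or 3.

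Over the whole interval from 6 hpa to 8C 8 of the 10 fell, where 16.9% of all genes fell, and Hormad1 rose, where 18.1% of all genes rose. The log2 fold changes of those that fell ran from -1.53 ± 0.49 (SE) for Sycp3 to -5.76 ± 0.26 (SE) for Dazl. At 8C Dazl was at 2.02 to 9.28 TPM, and Mael was at or below 0.853 TPM, with 3 of 6 libraries listed at 0. Hormad1 was at 8.88 to 78.1 TPM at 8C, with a median of 25.3 TPM, a log2 fold change over 6 hpa of 3.05 ± 0.68 (SE, adjusted p = 0.00017, limma). In replicates 1 to 3 alone 5 of the 10 passed (Dazl, Ddx4, Sycp1, Mael and Slc25a31), and Hormad1 had a log2 fold change of 2.52 with an adjusted p of 0.105. The fall of Stk31 (log2 fold change -1.69 ± 0.52, SE, adjusted p = 0.0061, limma) was not called with a pseudocount of 0.1 (adjusted p = 0.060, limma).

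Between 8C and the blastocyst the meiotic genes differed from one another. Sycp1 rose from 8C to morula, from 0.131 to 3.40 TPM to 0.101 to 14.0 TPM with a median of 7.56 TPM, where 3.90% of all genes rose. Its log2 fold change was 1.75 ± 0.49 (SE, adjusted p = 0.018, limma), but 0.951 with an adjusted p of 0.725 in replicates 1 to 3 alone. Sycp1 stayed at 7.51 to 14.0 TPM in the SCNT ICM and was at 1.54 to 15.8 TPM in the SCNT TE. Hormad1 was at 13.9 to 44.1 TPM in the morula and at 0.258 to 6.82 TPM in the SCNT ICM, with no overlap. From morula to SCNT ICM 3 of the 10 fell (Dazl, Ddx4 and Hormad1), where 7.07% of all genes fell, and from morula to SCNT TE 2 fell (Dazl and Hormad1), where 5.17% of all genes fell. Ddx4 was at 1.95 to 21.8 TPM in the morula and at 0.0755 to 3.85 TPM in the ICM, with overlap. Its fall to the ICM was not called in replicates 1 to 3 alone (adjusted p = 0.086, limma). The log2 fold changes of Hormad1 were -3.60 ± 0.68 (SE, adjusted p = 9.8e-05, limma) in the ICM and -3.16 ± 0.68 (SE, adjusted p = 0.00061, limma) in the TE. Dazl, still at 4.88 to 18.4 TPM in the morula, was at 0.0471 to 1.33 TPM in the ICM and at 0 to 0.331 TPM in the TE, with log2 fold changes of -2.75 ± 0.26 and -2.98 ± 0.26 (SE). Between SCNT ICM and TE none of the 10 passed, where 2.33% of all genes did, with or without the replicate block, and Sycp1 alone had an unadjusted p under 0.05 (log2 fold change 1.02 ± 0.49, SE, higher in the ICM, limma). Both lineages held markers of the other. The summed TE markers were at 1933 to 8414 TPM in the SCNT ICM and 5133 to 16126 TPM in the TE. The summed ICM markers were at 67.3 to 379 TPM in the SCNT TE and 344 to 899 TPM in the SCNT ICM. The part of these mixtures in the comparison was not tested.

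The order of the stages differed by gene. Dazl, Ddx4, Sycp1, Stk31 and Slc25a31 had their highest mean log2 level at 6 hpa, Tdrkh at 14 hpa, Mael at E2C, Sycp3 at L2C and Hormad1 in the morula. With the SCNT stages ordered by mean, the ranges of neighbours overlapped except between E2C and L2C, L2C and morula, and 8C and ICM for Dazl, between E2C and the next stage for Slc25a31, and between 6 hpa and the next stage for Ddx4 and for Mael. Taf7l was at most 0.577 TPM, in a morula library, and it was listed at 0 in every E2C, 4C and 8C library.

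As a description of likeness, group means of log2(TPM + 1) over CCs and the 9 SCNT groups were correlated with those of 12083 other genes with a mean of at least 1 TPM. Means over the same 10 groups share the fall of stored RNA. The genes most like Dazl were Tex12 (Pearson r = 0.988), Rps6ka5 and Gm4541. Tex12, another protein of the synaptonemal complex, and Syce2, which was most like Tdrkh (r = 0.987), belong to the wider germ cell list. Mael was most like Pacsin1 (r = 0.995), Cox6a2 and 1700011A15Rik, Ddx4 like Rnf114 (r = 0.988), Pcyt1b and Spryd3, Stk31 like Cenpe (r = 0.987), Rfc1 and Cecr2, and Slc25a31 like Gm38415 (r = 0.985), Nek11 and Cfap53. Nup214 and Tcl1 followed for Tdrkh. The likeness was lower for Sycp3, led by Setdb2 (r = 0.941), Pola1 and Gsg2, for Sycp1, led by Ceacam10 (r = 0.956), Hist1h2bk and Hist1h2bn, and for Hormad1, led by Spink2 (r = 0.968), Lrrc48 and Kif9. Among the members, Mael and Tdrkh were most alike (r = 0.961), and Hormad1 had values between -0.237 and 0.490 with the 8 others, Taf7l left out for its low level.

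The deposited tables also list loci assembled from the reads of each library, and these showed how the reads lay within 2 of the genes. Sycp1 lies on chromosome 3, minus strand, at chr3:102818499-102936100 (mm10). Inside one of its introns, between exons that end at 102900136 and start at 102908906, an unannotated locus at chr3:102904587-102906464 was listed in 32 libraries, all of them SCNT embryos up to 8C. It overlaps no other gene of GENCODE vM21. Its TPM was 27.8 to 58.3 at 6 hpa, 36.8 to 156 at 14 hpa, 48.7 to 205 at E2C, 63.4 to 286 at L2C and 5.45 to 32.3 at 4C. At 8C it was listed in 3 of 6 libraries, at no more than 4.33 TPM, and in no library of CCs, morulae, SCNT ICM, SCNT TE or fertilized blastocysts. Its median rose from 28.5 TPM at 6 hpa to 89.0 TPM at L2C while that of annotated Sycp1 went from 21.6 to 6.90 TPM, values that were not tested. The assembly gave it no strand in 21 of 38 cases, minus in 16 and plus in 1.

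**Figure D3:**
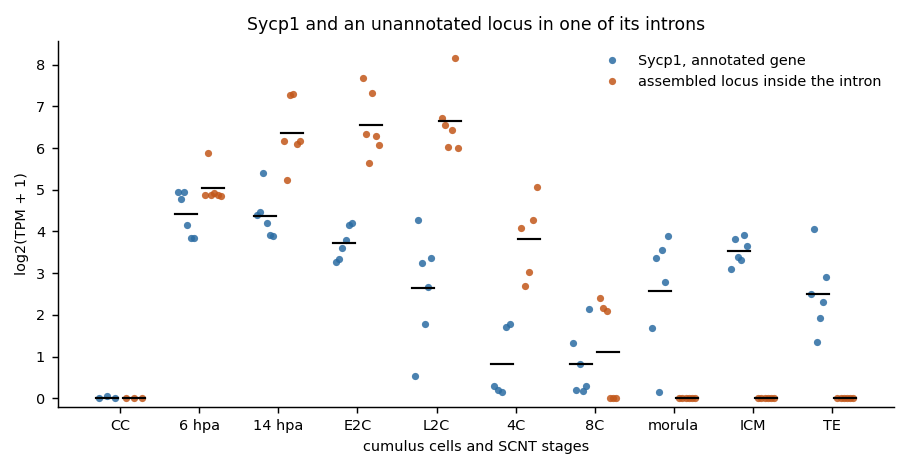
Level of annotated Sycp1 (blue) and of the unannotated locus inside one of its introns (orange) in CCs and at each SCNT stage, as log2(TPM + 1) on the vertical axis. Points are libraries and black lines are means, with 3 libraries for CC, 5 for 4C and 6 for each other group. The mean of the intronic locus is above that of Sycp1 from 6 hpa to 8C (at 8C 1.11 against 0.82 on the log2 scale), and the locus is at 0 from the morula on, where Sycp1 reaches 15.8 TPM.

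Stk31 lies on chromosome 6, plus strand, at chr6:49395604-49469502. A locus that reached both annotated ends within 500 bases was assembled in 6 of 6 libraries at each of 6 hpa, 14 hpa and E2C, in 1 of 6 at L2C and in 0 of 17 from 4C to morula. The 3' end was reached in 17 of those 17 libraries, and in 15 of them the most abundant such locus began more than 10 kb inside the gene. GENCODE vM21 also holds a short Stk31 transcript that starts at 49438564 and runs to the same 3' end, and 2 of the 17 loci began within 500 bases of its start, 11 before that and 4 after. Full loci were back in 3 of 6 SCNT ICM libraries, 2 of 6 SCNT TE libraries and 10 of 12 libraries of fertilized blastocysts. Unannotated loci without a strand between the exons that end at 49425818 and start at 49437350 were listed in 3 of 6 L2C and 5 of 5 4C libraries, at 13.5 to 44.7 TPM, in 2 of 6 8C libraries (13.7 and 21.1 TPM), 2 of 6 morulae (2.64 and 8.07 TPM), 1 of 6 SCNT ICM (29.4 TPM) and 1 of 6 SCNT TE libraries (4.41 TPM), and in 0 of 18 SCNT libraries before L2C. The annotated Stk31 level at 8C, 8.15 to 24.6 TPM, thus includes no locus assembled from end to end. With the most abundant assembled locus in its place, the fall of Stk31 from 6 hpa to 8C was not called (log2 fold change -0.84, adjusted p = 0.25, limma). Over all members and libraries, the most abundant assembled locus was over 2-fold above the annotated gene and at least 1 TPM in 113 of 680 values, of which 39 were of Tdrkh and 30 of Sycp1.

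The second question was whether loss of Max or Mcrs1 changes the 10 genes in fertilized blastocysts. Max RNA was at 38.0 and 8.42 TPM in the control ICM and at 6.82 and 0.443 TPM after Max MO, so the log2 fold change was -2.51 ± 0.89 (SE, adjusted p = 0.12, limma). The TE values of Max were 34.5 and 28.5 TPM in the control and 16.3 and 8.68 TPM after Max MO (log2 fold change -1.32 ± 0.89, SE, adjusted p = 0.58, limma). The Max MO groups were lower without overlap in both lineages and passed in neither. Mcrs1 was at 253 and 310 TPM in the control ICM against 86.8 and 73.4 TPM after Mcrs1 MO, and at 219 and 294 TPM against 41.1 and 45.5 TPM in the TE, and it fell in both (log2 fold changes -1.80 ± 0.18 and -2.53 ± 0.18, SE, adjusted p = 0.0054 and 0.0024, limma). The target sites of the morpholinos were not analysed here. The comparisons of each morpholino use the same 2 control libraries per lineage. The TPM summed over all reference genes also parted these libraries. It was 855085 to 903312 in the controls and 935697 to 943784 after the morpholinos, without overlap. Depth was 1.00 gigabases in control TE replicate 1, the lowest of all libraries, against 3.19 and 3.05 gigabases in the Max MO TE. The part of these library-wide differences in the comparisons with control was not tested.

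In control blastocysts the 10 genes had very different levels. Stk31 was the highest, at 83.7 and 118 TPM in the ICM and 53.6 and 32.0 TPM in the TE. Mael was at 15.4 and 64.0 TPM in the ICM and 6.04 and 6.51 TPM in the TE. Sycp3 was at 16.95 to 43.8 TPM and Hormad1 at 13.8 to 28.2 TPM over the 4 control libraries. Ddx4 (1.36 to 10.5 TPM), Sycp1 (1.90 to 6.02 TPM) and Tdrkh (2.23 to 5.96 TPM) were lower, Slc25a31 was at 0 to 3.18 TPM, Dazl at 0 to 1.52 TPM and Taf7l at 0 to 0.118 TPM. None of the 10 passed between control ICM and TE, where 0.774% of all 19642 genes tested did, and Mael and Stk31, both higher in the ICM without overlap (15.7% of all genes), had an unadjusted p under 0.05 (limma). SCNT blastocysts, of another strain and experiment, had Mael at 0 to 4.01 TPM, Stk31 at 0 to 35.1 TPM and Hormad1 at 0.0935 to 11.1 TPM over 12 libraries, while Dazl was at 0 to 1.33 TPM and Sycp3 at 14.2 to 90.7 TPM. Embryo type, strain, injection and sequencing run cannot be told apart in these values, and they were not tested.

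**Figure D4:**
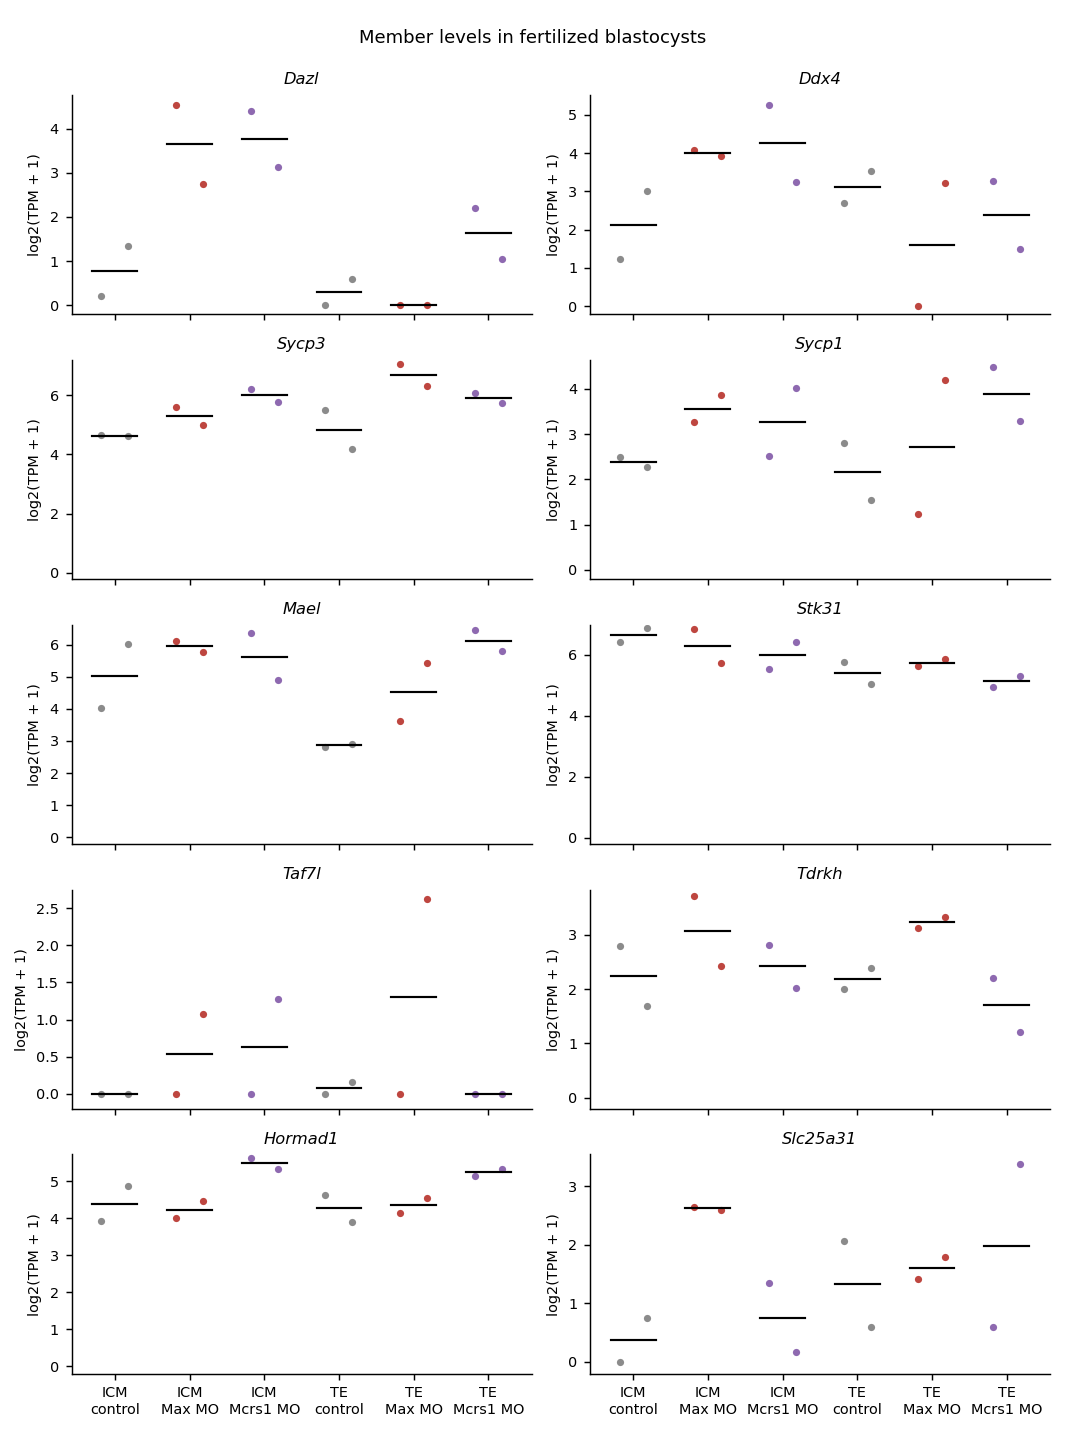
Level of each of the 10 genes (one panel each, vertical axis log2(TPM + 1), scaled per panel) in the ICM and TE of fertilized blastocysts after control (grey), Max MO (red) or Mcrs1 MO (purple). Points are the 2 libraries of a group and black lines their means. Dazl stands above control in the ICM after both morpholinos, at 5.70 to 22.4 TPM against at most 1.52 TPM, and is at 0 in the Max MO TE.

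After Max MO, none of the 10 genes passed the test in the ICM, where 10.6% of all genes did, and 2 of the 10 (Dazl and Slc25a31) had an unadjusted p under 0.05 (limma). Among them 5 (Dazl, Ddx4, Sycp3, Sycp1 and Slc25a31) were above control without overlap, where 16.1% of all genes were, and 0 were below control without overlap, where 22.5% of all genes were. Their median log2 fold change was 0.87, against -0.02 over all genes tested. Dazl was at 0.153 and 1.52 TPM in the control and at 22.4 and 5.70 TPM after Max MO, so that the lower Max MO library exceeded the higher control. Its log2 fold change was 2.88 ± 0.82 (SE, adjusted p = 0.061, limma). Slc25a31 was at 0 and 0.683 TPM in the control and at 5.27 and 5.07 TPM after Max MO (log2 fold change 2.25 ± 0.96, SE, adjusted p = 0.20, limma). Ddx4 was at 1.36 and 7.01 TPM in the control and 16.0 and 14.3 TPM after Max MO, and Sycp1 at 4.60 and 3.86 TPM against 8.64 and 13.5 TPM. Mael, Tdrkh, Stk31 and Hormad1 overlapped with the control, and Taf7l was listed at 0 in 3 of the 4 libraries and at 1.10 TPM in the other.

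In the TE after Max MO, none of the 10 passed, where 0.865% of all genes did, and Sycp3 alone had an unadjusted p under 0.05 (limma). Sycp3, Mael and Tdrkh were above control without overlap, 3 of 10 where 14.2% of all genes were, and 0 of 10 were below, where 23.5% of all genes were. Sycp3 was at 43.8 and 16.95 TPM in the control and at 132 and 78.6 TPM after Max MO, the highest Sycp3 values of the 12 libraries of fertilized blastocysts. Its log2 fold change was 1.86 ± 0.46 (SE, adjusted p = 0.11, limma), and the adjusted p was 0.0484 among genes with a mean of at least 1 TPM. Without control TE replicate 1 the log2 fold change was 2.52 with an adjusted p of 0.0285, and without control TE replicate 2 it was 1.199 with an adjusted p of 0.26. Dazl, at 0 and 0.497 TPM in the control TE, was listed at 0 in both Max MO TE libraries. The difference between the ICM and TE responses of Dazl to Max MO was 3.17 ± 1.15 on the log2 scale (SE, adjusted p = 0.39, limma), with none of the 10 past the threshold, where 0.229% of all genes were, and Dazl alone at an unadjusted p under 0.05.

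After Mcrs1 MO, none of the 10 passed in the ICM, where 3.67% of all genes did, and 3 (Dazl, Sycp3 and Hormad1) had an unadjusted p under 0.05 (limma). Here again 5 of 10 (Dazl, Ddx4, Sycp3, Sycp1 and Hormad1) were above control without overlap, where 15.8% of all genes were, and 0 below, where 18.4% were. Dazl was at 20.0 and 7.81 TPM, a log2 fold change over control of 2.997 ± 0.82 (SE, adjusted p = 0.087, limma). Sycp3 was at 73.7 and 53.4 TPM against 23.9 and 23.5 TPM, a log2 fold change of 1.37 ± 0.46 (SE, adjusted p = 0.15, limma). Hormad1 was at 48.8 and 39.4 TPM against 14.2 and 28.2 TPM, a log2 fold change of 1.09 ± 0.38 (SE, adjusted p = 0.17, limma). In these groups each Mcrs1 MO library was above each control library.

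In the TE after Mcrs1 MO, none of the 10 passed, where 1.95% of all genes did, and Sycp3, Mael and Hormad1 had an unadjusted p under 0.05 (limma). Dazl, Sycp3, Sycp1, Mael and Hormad1 were above control without overlap, 5 of 10 where 15.1% of all genes were, and 0 of 10 were below, where 26.1% were. Mael was at 6.04 and 6.51 TPM in the control and at 85.7 and 54.2 TPM after Mcrs1 MO. Its log2 fold change of 3.25 ± 0.82 (SE) was the largest of the 10 in any of the 4 comparisons with control, with an adjusted p of 0.092 (limma) and of 0.0284 among genes with a mean of at least 1 TPM. In the ICM, where control Mael was at 15.4 and 64.0 TPM, the Mcrs1 MO libraries were at 80.7 and 28.7 TPM and overlapped with it. The difference between the 2 lineages in the Mael response was -2.66 (95% confidence interval -5.36 to 0.04, adjusted p = 0.72, limma), none of the 10 passed for this response, where 0.122% of all genes did, and 0 of the 10 had an unadjusted p under 0.05.

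The 2 morpholinos were compared directly. None of the 10 passed in the ICM, where 0.616% of all genes did, or in the TE, where 0.0662% did, and Hormad1 alone had an unadjusted p under 0.05 in each (limma). Hormad1 was lower after Max MO than after Mcrs1 MO in both lineages without overlap, at 15.2 and 20.9 TPM against 48.8 and 39.4 TPM in the ICM and at 16.6 and 22.5 TPM against 34.5 and 39.7 TPM in the TE. The log2 differences of Hormad1 were -1.25 (95% confidence interval -2.14 to -0.36, adjusted p = 0.20, limma) and -0.90 (-1.79 to -0.01, adjusted p = 0.96, limma). Dazl differed by -0.12 in the ICM, with an interval of -2.03 to 1.78, an interval that leaves room for sizeable differences in either direction. In the TE, where Dazl was listed at 0 in both libraries after Max MO and at 3.62 and 1.07 TPM after Mcrs1 MO, the difference was -1.63 (-3.53 to 0.28). Slc25a31 was higher after Max MO in the ICM, at 5.27 and 5.07 TPM against 1.54 and 0.120 TPM (1.87, interval -0.36 to 4.10). In the ICM 1 of 10 (Slc25a31) was higher after Max MO without overlap and 2 (Sycp3 and Hormad1) lower, where 14.0% and 21.3% of all genes were. In the TE 3 (Sycp3, Stk31 and Tdrkh) were higher and 3 (Dazl, Mael and Hormad1) lower, where 17.7% and 14.3% of all genes were.

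The wider list of 58 germ cell genes, of which 55 were tested in the fertilized blastocysts, moved in both directions. In the Max MO ICM 4 rose and 2 fell, where 4.07% and 6.51% of all genes did. In the Max MO TE 1 rose and none fell, where 0.305% and 0.560% did. In the Mcrs1 MO ICM 1 rose and 1 fell, where 1.74% and 1.93% did, and in the Mcrs1 MO TE none passed, where 0.652% rose and 1.30% fell. The median log2 fold changes of the list were -0.02, 0, 0 and 0. Those that rose in the Max MO ICM were Asz1, a piRNA pathway protein of germ granules (1.71 and 4.55 TPM in the control, 68.7 and 25.9 TPM after Max MO, log2 fold change 3.48 ± 0.82, SE, adjusted p = 0.033, limma), the meiotic genes Spata22 and Majin (named 1700123I01Rik in the tables), and Figla, a transcription factor of oocytes. Figla was listed at 0 in both control ICM libraries and at 2.83 and 0.749 TPM after Max MO. Those that fell were Mlh3 (13.6 and 13.9 TPM to 2.92 and 1.24 TPM) and Msh4 (2.70 and 2.23 TPM to 0.402 and 0.0666 TPM), both listed with the genes of meiotic recombination. In the Mcrs1 MO ICM Asz1 was at 53.8 and 31.0 TPM, Mlh3 at 4.47 and 5.36 TPM and Msh4 at 0.704 and 0.105 TPM. Spata22 was at 0 and 1.33 TPM there, and Majin and Figla were listed at 0 in both libraries. None of these genes passed in the Mcrs1 MO ICM. Stra8, which starts meiosis, rose in the Max MO TE, from 0.190 and 0 TPM to 1.72 and 1.17 TPM. In the Mcrs1 MO ICM Tex15 rose, and Rec8, a meiotic cohesin, fell from 19.2 and 39.9 TPM to 0.241 and 0 TPM (log2 fold change -4.69 ± 0.60, SE, adjusted p = 0.011, limma).

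The list of PRC1.6 and its partner repressors held 24 genes, all tested. In the Max MO ICM 3 fell and none rose, where 6.51% and 4.07% of all genes did, with a median log2 fold change of -0.65 against -0.02 over all genes tested. Mga, the partner of MAX in PRC1.6, was at 26.9 and 34.9 TPM in the control ICM, at 2.97 and 4.00 TPM after Max MO and at 9.52 and 7.204 TPM after Mcrs1 MO, and fell after both (log2 fold changes -2.83 ± 0.31 and -1.77 ± 0.31, SE, adjusted p = 0.0028 and 0.027, limma). In the TE Mga was at 14.5 and 12.7 TPM in the control, 5.97 and 6.10 TPM after Max MO and 4.82 and 7.45 TPM after Mcrs1 MO, and passed in neither comparison. The histone methyltransferase Setdb1 and the demethylase Kdm1a also fell in the Max MO ICM (log2 fold changes -2.34 ± 0.52 and -1.53 ± 0.30, SE), and Kdm1a fell in the Mcrs1 MO TE (-1.66 ± 0.30, SE), where 1.30% of all genes fell.

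Markers of cell types moved beside these groups. The summed TE markers were at 16062 TPM in control ICM replicate 1, as high as in the TE groups (15129 to 21218 TPM), against 354 TPM in replicate 2, at 2723 and 5844 TPM after Max MO and at 11610 and 8082 TPM after Mcrs1 MO. The summed oocyte markers were at 0.137 and 45.3 TPM in these 2 control libraries, at 8.38 and 4.24 TPM after Max MO and at 3.51 and 4.40 TPM after Mcrs1 MO. Without control ICM replicate 1 the log2 fold change of Dazl was 2.31 after Max MO (adjusted p = 0.15, limma) and 2.43 after Mcrs1 MO (adjusted p = 0.14, limma), and without replicate 2 it was 3.44 and 3.56. Ddx4 was at 1.01 and 1.25 without replicate 1 against 1.89 and 2.13 with both, and Hormad1 after Mcrs1 MO was at 0.62 against 1.09. The summed ICM markers were at 1493 and 2047 TPM in the control ICM, at 1186 and 1321 TPM after Max MO and at 447 and 1055 TPM after Mcrs1 MO. Of the 6 primitive endoderm markers Sox17 and Gata4 rose in the Max MO ICM, where 4.07% of all genes did, Sox17 from 0 and 0.133 TPM to 178 and 32.5 TPM, and the summed list was at 264 and 78.6 TPM against 35.8 and 35.0 TPM. In the Mcrs1 MO ICM Sox17 was at 38.2 and 22.5 TPM, Gata4 at 6.99 and 14.7 TPM and the summed list at 96.7 and 81.3 TPM. None of the 6 markers passed there. Of the oocyte markers Zp2, a zona pellucida protein, rose in the Max MO ICM, from 0 and 0.180 TPM to 4.69 and 3.63 TPM, while 7 of the 10 oocyte markers, Gdf9, Bmp15 and H1foo among them, were listed at 0 in both libraries. The part of these cell types in the levels of the 10 genes was not tested.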

How the data were processed

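RNA libraries of CCs, SCNT embryos and morpholino-injected fertilized blastocysts were analysed, 68 in all. The authors' reads, trimmed by cutadapt 1.16, went through HISAT2 (mm10) and StringTie, per the paper's methods and processing notes, and they deposited 1 gene table per library with coverage signal, FPKM and TPM. The deposited FPKM and coverage served only to estimate depth (coverage divided by FPKM). The deposited TPM column holds assembled loci, which sum to 1000000, and reference genes on the same scale, so it was treated as a signal. TPM was summed per gene symbol. Groups and replicate numbers came from the labels, and a 4C library labelled replicate 5 was used as such although its table carries another number.

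log2(TPM + 1) of genes above 0 TPM in at least 1 library was fitted with limma 3.58.1 (R 4.3.3; eBayes with a trend), 23985 genes over 10 groups of CCs and SCNT embryos and 19642 genes over 6 groups of fertilized blastocysts, so that all 10 members were tested. The study used DESeq2, which needs counts that these tables do not hold. The fit was tested on simulated data. Python 3.11.15 with pandas 2.3.3 was used for summaries.

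The members and lists were chosen with earlier results of these data known. Genes were named by rule: the 10 members, Max, Mcrs1, up to 6 called genes per list with the largest change in a morpholino comparison, and the 3 genes most like each member. Mga in the TE and markers at 0 were named after their values were seen. Same-numbered libraries deviated together (correlation of deviations from the group means over 0.1 in every pair) between 6 hpa and 14 hpa, at 0.142 to 0.390, and between SCNT ICM and TE, at 0.130 to 0.298. This is a hint of pairing from the data, since no label says so. The main fits did not pair libraries, and the replicate block is given beside the results it moves. Control ICM and TE of fertilized blastocysts also met this rule, at 0.128, and the block did not move their count of calls. Alternatives were a pseudocount of 0.1, a mean TPM of at least 1, rescaling over reference genes, quantile normalization, the largest row of a gene, a replicate block, no variance trend, each lineage or the SCNT libraries fitted alone, SCNT replicates split into 1 to 3 and 4 to 6, and single replicates left out. Replacing a member's level by its most abundant assembled locus was added after seeing the data. Smart-seq2 does not mark strand, so reads of Sycp3 and the overlapping Chpt1, and of Sycp1, Stk31 and Tdrkh and pseudogenes inside them, cannot be told apart where they overlap.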

Additional observations from a re-analysis of the deposited data

Results flagged for a closer look

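Within groups of 4 to 10 libraries, the highest or lowest value of a gene was set against the others by Dixon's test on log2(TPM + 1), over 87 pairs of gene and group, of which 13 were flagged. Chance flags about 1 in 20 such groups, and groups with most libraries at 0 are flagged by any value above 0. Dazl was at 1.33 TPM in SCNT ICM replicate 5, with the others at 0.0471 to 0.329 TPM. Ddx4 was at 17.9 TPM in E2C replicate 4, with the others at 10.7 to 12.8 TPM, and at 2.54 TPM in 4C replicate 4, with the others at 0.0477 to 0.348 TPM. Sycp1 was at 40.9 TPM in 14 hpa replicate 3, with the others at 13.9 to 21.0 TPM. Mael was at 0.853 TPM in 8C replicate 5, at 2.54 TPM in SCNT ICM replicate 5 and at 4.01 TPM in SCNT TE replicate 6, where the others were at no more than 0.114, 0.158 and 0 TPM. Taf7l was at 0.0366 TPM in L2C replicate 1, 0.577 TPM in morula replicate 2 and 0.0470 TPM in SCNT TE replicate 6, with the others at 0. Tdrkh was low in replicate 1 at both 14 hpa (10.7 TPM, the others at 23.8 to 29.3 TPM) and E2C (9.36 TPM, the others at 17.1 to 20.3 TPM). Slc25a31 was at 6.34 TPM in SCNT TE replicate 5, with the others at 0 to 0.700 TPM.

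The locus assembled inside an intron of Sycp1 was flagged as a signal outside the annotated genes. It reached 286 TPM, in an L2C library, and was listed in none of the 3 CC libraries.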

How the results depend on the processing

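Of 1339 alternative values of single members, 1297 kept their direction and their side of the threshold, 32 lost a call, 6 gained one and 4 changed sign or went to 0, and of 394 alternative counts of members called 367 stayed within 1.5 times the reported count. The causes of the others were not tested, except that fewer genes or libraries enter by construction.

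With genes of a mean of at least 1 TPM only, 1 member was called in place of 0 for Max MO in the ICM (Dazl), Max MO in the TE (Sycp3), Mcrs1 MO in the ICM (Dazl), Mcrs1 MO in the TE (Mael) and 14 hpa against 6 hpa (Mael). Dazl reached that mean through the 2 morpholino ICM groups, where it was high, so its call there is no support. For 14 hpa against 6 hpa the count was also 1 (Mael) after rescaling, after quantile normalization, with the replicate block and in SCNT replicates 4 to 6 alone. With the replicate block the other counts stayed within 1.5 times, and the morpholino comparisons had 0 calls, although same-numbered libraries there shared only a number (correlations -0.0383 to 0.0574). Control ICM and TE, at 0.128, were over the 0.1 used as a hint of pairing and had 0 calls with the block. E2C against 14 hpa gave 1 under quantile normalization (Slc25a31) and 2 in replicates 1 to 3 (Sycp3 and Slc25a31), in place of 0. L2C against E2C gave 3 in place of 6 with a pseudocount of 0.1, with the members' assembled loci and in replicates 1 to 3. In replicates 1 to 3 4C against L2C gave 3 in place of 5, 8C against 4C 2 in place of 1, and 8C against 6 hpa 5 in place of 9. In replicates 4 to 6 8C against 4C gave 0, morula against 8C 2 in place of 1, and SCNT ICM against TE 1 (Stk31) in place of 0. Morula against 8C gave 0 with the assembled loci.

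With single replicates left out, the count ran from 0 to 1 for Max MO in the ICM (1 without Max MO ICM replicate 2, Dazl at 3.78) and in the TE (1 without control TE replicate 1), from 0 to 1 for 14 hpa against 6 hpa (1 without 4C replicate 1), from 5 to 7 for 4C against L2C and from 0 to 1 for 8C against 4C. The values that changed sign or went to 0, each not called, were those of Ddx4 (Max MO against control, TE), from -3.11 to 0.0956, of Taf7l (same comparison), from -0.0802 to 2.54, of Sycp1 (Max MO against Mcrs1 MO, TE), from -2.65 to 0.295, and of Taf7l there, from 0 to 2.62, each with a Max MO TE library left out. Only the CC, 4C and fertilized libraries, in groups of 2 to 5, were left out singly. Without counts, counting error and depth per gene are unknown, and with 2 libraries a group the intervals of the morpholino differences span several log2 units.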

Other observations

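The RNAs of Max and Mga had their own courses in SCNT embryos. Max was at 12.4 to 21.7 TPM at 6 hpa, 46.8 to 84.3 TPM at E2C and 0.879 to 11.1 TPM at 8C. Mga, its PRC1.6 partner, was at 2.58 to 10.8 TPM at E2C, 11.996 to 45.8 TPM at L2C and 3.70 to 6.74 TPM at 8C, and its L2C libraries lay above all libraries at E2C and 8C. Mcrs1 was at 10.1 to 34.8 TPM at 6 hpa and 102 to 218 TPM in the morula. These values were not tested.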
